A study of Mus musculus with 2 samples.

Results

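The genes described here encode the proteins of the mitochondrial ribosome. They were chosen by name, as the protein-coding genes whose GENCODE M21 symbol begins with Mrpl (large subunit) or Mrps (small subunit) followed by a digit. The annotation holds 78 such genes, of which 77 were measured, 48 of them Mrpl and 29 Mrps, among 21461 nuclear protein-coding genes. Mrpl33 was not analysed here. The series held 2 total RNA-seq libraries of G1E-ER4, an immortalized mouse erythroid line that the labels give as strain C57BL/6J. The line has no Gata1 gene of its own and carries a Gata1 construct whose product depends on estradiol. Both cultures had been given 10 nM 17beta-estradiol for 24 h to start differentiation, and they are labelled as biological replicates 1 and 2. Each library was made by ScriptSeq from 100 ng of RNA depleted of ribosomal RNA. No untreated culture was analysed here, so every value below is a level, a ratio within a library or a difference between the replicates, and no effect of estradiol was measured. The line is a single cell line, so the spread between libraries is that of cultures and not of animals.

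Mitochondria translate the few messenger RNAs of their own genome on a separate ribosome. Its RNAs are made inside the organelle, whereas its proteins are encoded in the nucleus, made in the cytosol and imported. The proteins it makes are core subunits of the respiratory chain and of the ATP synthase. Some of its proteins have counterparts in bacterial ribosomes and others were added in the mitochondrial lineage. In erythroid cells the first and the last steps of haem synthesis take place in mitochondria, and the organelle is removed when the red cell matures.

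The libraries held 62080996 and 41051158 expected counts. All 10 erythroid markers, Alas2 among them, were at 1 TPM or more in both libraries, with a summed level of 2321 and 3205 TPM. Among the 10 is Gata1 (66.6 ± 9.32 TPM, SD, n = 2), which the line carries as a construct, so its level is no check of the cell type. Of 13 markers of other blood, endothelial and stromal cells, 1 (Itga2b, 1.87 ± 0.240 TPM) reached 1 TPM in both, and Cd3e and Col1a1 had 0 counts in both. TPM is a share of the library's transcripts, after correction for transcript length. It is used here for every comparison between genes.

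Promoter sequences are shown first, as a feature that the choice of genes did not use. RefSeq windows on GRCm38.p6, from 250 bases before to 50 after each start, were matched by symbol for 68 of the 77 genes and gave 74 windows. Each was searched on both strands for 8 fixed strings, none of which contains another. In the windows printed here, capitals mark the ETS-type string CCGGAAG, the palindrome bound by NRF1 and the YY1-type string AAGATGGCG, or their reverse complements. Mrps21 is the gene with the highest level, Mrps6 the one with the lowest, and Mrps11 shares its start region with another gene of the set, Mrpl46.
Mrps21, chr3:95871465-95871764 (minus strand): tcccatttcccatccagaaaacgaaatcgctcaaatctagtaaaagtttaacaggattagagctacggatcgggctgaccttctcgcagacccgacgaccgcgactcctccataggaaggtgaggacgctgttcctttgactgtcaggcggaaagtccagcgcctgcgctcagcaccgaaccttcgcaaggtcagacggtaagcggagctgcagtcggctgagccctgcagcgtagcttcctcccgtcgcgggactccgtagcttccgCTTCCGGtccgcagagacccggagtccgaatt
Mrps6, chr16:92058086-92058385 (plus strand): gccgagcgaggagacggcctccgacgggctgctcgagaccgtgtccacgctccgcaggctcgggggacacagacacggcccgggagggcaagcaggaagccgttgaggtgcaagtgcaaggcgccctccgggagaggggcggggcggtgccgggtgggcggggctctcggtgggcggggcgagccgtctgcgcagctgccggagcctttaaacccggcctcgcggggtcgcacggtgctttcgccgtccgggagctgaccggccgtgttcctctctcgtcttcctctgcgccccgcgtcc
Mrps11, chr7:78782881-78783180 (plus strand): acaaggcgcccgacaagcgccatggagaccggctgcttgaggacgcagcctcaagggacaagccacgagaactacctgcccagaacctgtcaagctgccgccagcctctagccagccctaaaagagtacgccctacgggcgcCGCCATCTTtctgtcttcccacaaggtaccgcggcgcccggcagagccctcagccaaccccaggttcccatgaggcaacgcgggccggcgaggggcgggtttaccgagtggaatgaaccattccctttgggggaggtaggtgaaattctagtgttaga

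The Mrps21 window held an ETS-type string shortly after the start on the strand opposite to the gene. In the Mrps6 window none of the 3 capitalised strings was found. The windows of Mrps11 and Mrpl46, which are transcribed in opposite directions, have 141 bases in common, chr7:78783040-78783180, and their RefSeq starts lie 42 bases apart. The YY1-type string of Mrps11 lies at position -108 from its start. It reads on the strand of Mrpl46, downstream of the Mrpl46 start and just past the end of the Mrpl46 window.

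Of the 8 strings, the YY1-type one is shown for every gene whose window holds it, since its ATG can coincide with the start codon. Each sequence below has 30 bases and is written on the strand on which the string reads AAGATGGCG, in capitals.
Mrpl35, chr6:71823742-71823771 (minus strand): ggcaggctgcAAGATGGCGgcttccatctt
Mrpl36, chr13:73330967-73330996 (minus strand): gccaggaagaAAGATGGCGtaaggtcacgt
Mrpl37, chr4:107066821-107066850 (minus strand): tgcacgggcaAAGATGGCGgcgtccaggta
Mrpl42, chr10:95501903-95501932 (minus strand): agattgaagcAAGATGGCGagcgcgcggtg
Mrps11, chr7:78783012-78783041 (minus strand): ggaagacagaAAGATGGCGgcgcccgtagg
Mrps18a, chr17:46111005-46111034 (plus strand): ggtgcgttccAAGATGGCGgccctcagggc
Mrps24, chr11:5707652-5707681 (minus strand): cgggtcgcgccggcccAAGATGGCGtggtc
Mrps27, chr13:99344790-99344819 (plus strand): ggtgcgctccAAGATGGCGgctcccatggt
The string was present in 8 of the 74 windows (10.8%), against 4.00% of the 7953 windows of nuclear protein-coding genes at 1 TPM or more and 1.40% of all 32851 windows. It lay on the gene's own strand in 6 of the 8. In 4 genes, Mrpl35, Mrps18a, Mrps24 and Mrps27, its ATG is the annotated start codon. Start codons were looked up only for the gene whose window holds the string. Those of a neighbour on the opposite strand, such as Mrpl46 beside Mrps11, were not examined. These 8 genes ranged from 1.495 (Mrps27) to 14.5 TPM (Mrps11), with a median of 8.00 TPM, and the 60 genes without the string had a median of 9.67 TPM.

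The ETS-type string was the second most frequent in this set. It was found in 25 windows (33.8%), against 22.8% of expressed and 8.86% of all windows. Of its 30 sites, 27 lay within 100 bases of the start. Distances were not counted in the expressed or all windows, so this placement is not shown to be particular to the set. The most frequent was GGGCGG, the core of SP/KLF sites, in 52.7% of the windows against 65.5% of expressed and 35.7% of all. The palindrome bound by NRF1, a regulator of nuclear genes for mitochondrial proteins, occurred in 3 windows (4.05% against 2.45% and 0.971%), those of Mrpl9, Mrpl32 and Mrpl39. AGATAA, a string bound by GATA factors, occurred in 10 windows (13.5% against 6.17% and 11.2%), those of Mrpl3, Mrpl16, Mrpl28, Mrpl36, Mrpl45, Mrps14, Mrps17, Mrps18c, Mrps25 and Mrps36. The E-box CACGTG (9.46% against 11.1% and 7.15%), the ERR string AAGGTCA (5.41% against 2.88% and 4.72%) and TATAAA (6.76% against 6.06% and 13.6%) made up the rest. These percentages are of windows, and windows of 1 gene can overlap and hold the same site. The 7 windows with the E-box came from 5 genes, and the 39 with GGGCGG from 34. The windows had a median GC content of 58.8%, against 61.3% in expressed and 52.7% in all windows. Median levels were 10.1 TPM with and 8.43 TPM without the ETS-type string, and 15.8 TPM with and 9.03 TPM without AGATAA. These are descriptions of letters, and binding was not measured.

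All 77 genes were detected at 1 TPM or more in both libraries, the lowest of them Mrps6, whereas 36.3% of the nuclear protein-coding genes reached that level. Their median level was 8.57 TPM in replicate 1 and 9.39 TPM in replicate 2 (8.98 ± 0.580, SD, n = 2). The median of the 7781 nuclear protein-coding genes at 1 TPM or more was 6.44 and 6.38 TPM, so the set lay 1.33-fold and 1.47-fold above it (1.40 ± 0.0997). Together the 77 genes held 972 and 976.5 TPM, which is 0.689% and 0.679% of the TPM of nuclear protein-coding genes. Nuclear protein-coding genes as a whole held 140991 and 143913 TPM of the libraries. Rescaled so that nuclear protein-coding genes alone make up the TPM total, the medians were 60.8 and 65.2 TPM. In such bulk RNA a low level in every cell and a high level in few cells cannot be told apart.

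The proteins of the cytosolic ribosome, which makes all other proteins of the cell, give a scale for these levels. The median of 76 of their genes was 213 and 209 TPM, which is 24.9-fold and 22.2-fold above the mitochondrial set, and their sum was 20.4-fold and 20.1-fold higher. Between the genes at the 10th and 90th percentiles the level differed 7.04-fold in the mitochondrial set and 6.68-fold in the cytosolic set, against 19.0-fold over all expressed genes. The messenger RNAs of the mitochondrial genome, which this ribosome reads, had a median of 101 and 86.0 TPM over 13 genes.

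Levels within the set spanned 77.3-fold. A total of 14 genes were at 20 TPM or more, 20 between 10 and 20, 29 between 5 and 10, 11 between 2 and 5, and 3 below 2 TPM. Mrps21, a small-subunit protein with a bacterial counterpart (chromosome 3, 95862634 to 95871519), was highest at 93.02 and 85.52 TPM. It alone held 9.57% and 8.76% of the summed level and stood 1.74-fold above the next gene, with no overlap between their values. That gene was Mrpl30 (chromosome 1, 37890477 to 37898535), a large-subunit protein, at 51.30 and 51.47 TPM. Mrps18c at 35.83 and 34.16 TPM and Mrpl24 at 34.91 and 33.38 TPM followed, and their values overlapped. At the other end Mrps6 (chromosome 16, 92058270 to 92112227) was at 1.04 and 1.27 TPM from 137 and 113 counts, the fewest of the set. Mrpl19 (chromosome 6, 81957851 to 81965958) was at 1.47 and 1.04 TPM and Mrps27, a protein specific to mitochondria, at 1.62 and 1.37 TPM. The values of these 3 genes overlapped in part, and none of them reached the next gene, Mrps28, at 2.20 and 2.56 TPM. The plot of levels by gene shows the full order.

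**Figure D1:**
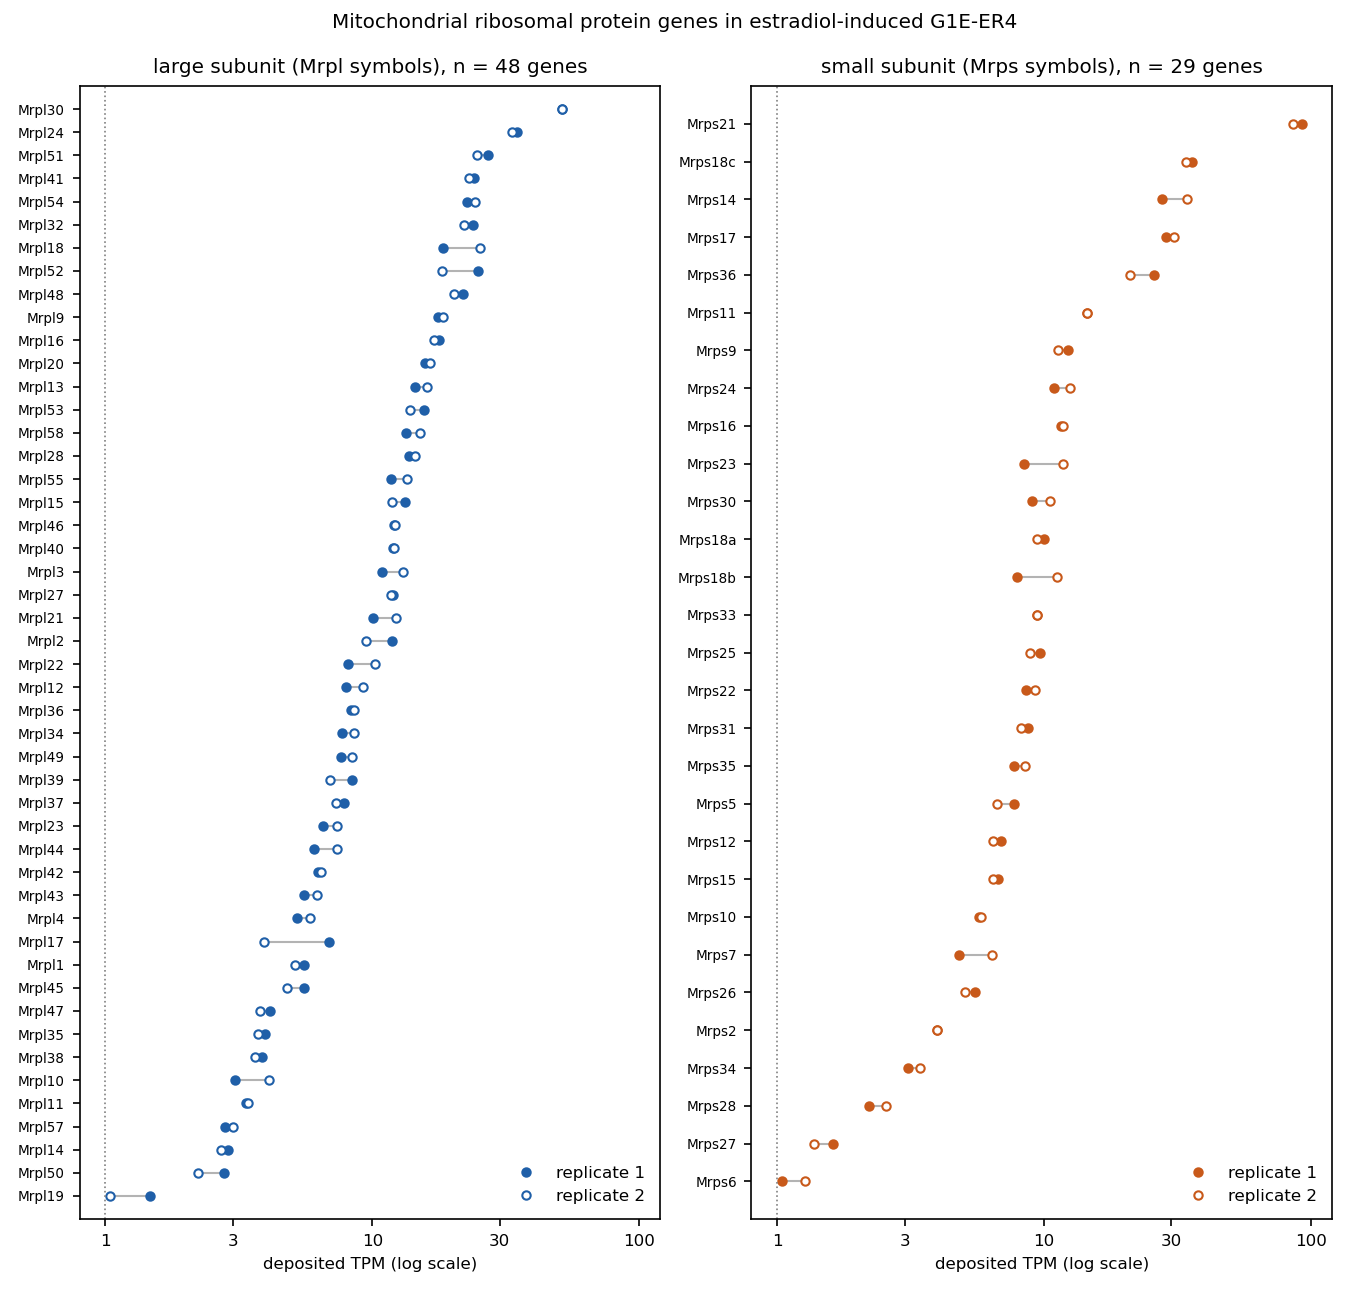
Deposited TPM (log scale) of the 48 Mrpl and 29 Mrps genes in replicate 1 (filled) and replicate 2 (open), ordered by mean level within each subunit, with the dotted line at 1 TPM. Mrps21 stands apart at 93.02 and 85.52 TPM, and every gene lies to the right of the line, Mrps6 closest to it at 1.04 and 1.27 TPM.

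Both subunits were expressed at nearly the same level. The median of the Mrpl genes was 9.22 and 9.85 TPM and that of the Mrps genes 8.57 and 9.25 TPM, a log2 difference, large minus small, of 0.11 and 0.09 (mean 0.10 ± 0.010, SD, n = 2, or 1.07-fold). The sign was the same in both libraries, and the mean exceeded their SD. With 2 libraries an exact sign-flip test cannot give a p below 0.5, so no test was made. The difference turned to -0.047 ± 0.016 when the 34 genes that share exon bases with another gene or have a named pseudogene were left out (26 large and 17 small genes remained). Without them the large-subunit median was 8.23 and 9.03 TPM and the small-subunit median stayed at 8.57 and 9.25 TPM. Symbols also misplace a few proteins. Mrps30 and Mrps18a are built into the large subunit, and Mrps36 is an adaptor of the 2-oxoglutarate dehydrogenase complex rather than a ribosomal protein. Assigned by structure, the difference was 0.20 (1.15-fold), and 0.07 when the 5 subunits with other names were added.

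In the large subunit, the highest genes after Mrpl30 and Mrpl24 were Mrpl51 (27.21 and 24.72 TPM), Mrpl41 (24.16 and 22.98), Mrpl54 (22.68 and 24.32) and Mrpl32 (23.95 and 22.00). Mrpl32 is the protein whose maturation by an inner-membrane protease precedes assembly of the subunit. Mrpl18 (18.48 and 25.41 TPM) and Mrpl52 (24.86 and 18.19) had similar means, but replicate 2 was higher for the first and replicate 1 for the second. The lowest after Mrpl19 were Mrpl50 (2.78 and 2.22 TPM), Mrpl14 (2.87 and 2.70), Mrpl57 (2.80 and 3.00) and Mrpl11 (3.37 and 3.43), whose values lie close together. Stalk proteins recruit the translation factors to the ribosome. Mrpl12, which forms the flexible stalk, was at 7.98 and 9.22 TPM, and Mrpl10, which anchors it, at 3.05 and 4.10 TPM. Mrpl11 sits at the base of that stalk, and Mrpl1, at 5.53 and 5.12 TPM, forms the stalk on the opposite side, where the empty tRNA leaves. Mrpl12 was thus above Mrpl10 and Mrpl11 in both libraries. Mrpl58, a peptidyl-tRNA hydrolase that became a fixed part of the subunit, was at 14.3 ± 1.23 TPM.

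In the small subunit, Mrps21 and Mrps18c were followed by Mrps14 (27.55 and 34.35 TPM), Mrps17 (28.66 and 30.77) and Mrps36 (25.93 and 21.05). The next, Mrps11 of the platform, was at 14.50 and 14.54 TPM, apart from the 5 above it in both libraries. Mrps9 (12.27 and 11.23) and Mrps24 (10.87 and 12.53) came after it. The lowest after Mrps6 and Mrps27 were Mrps28 (2.20 and 2.56 TPM), Mrps34 (3.09 and 3.43) and Mrps2 (3.97 and 3.96). The 3 Mrps18 genes are paralogs of 1 bacterial protein, and their products occupy different places. Mrps18c, of the small subunit, was at 35.0 ± 1.18 TPM, above Mrps18b of the same subunit (7.94 and 11.21 TPM) and Mrps18a of the large subunit (9.99 and 9.39 TPM) in both libraries. The order of the latter 2 differed between the libraries. Mrps12, a protein of the decoding centre, was at 6.90 and 6.41 TPM, and Mrps30 at 9.0 and 10.54 TPM.

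By the lists used here, subunits with bacterial counterparts and those added in mitochondria were at like levels. The lists do not treat the Mrps18 paralogs alike. Mrps18a was placed with the large-subunit genes that lack a counterpart, and Mrps18b and Mrps18c with the small-subunit genes that have one. In the large subunit the medians were 10.07 and 10.22 TPM for 29 genes with a counterpart and 9.0 and 9.39 TPM for 21 without. For the small subunit they were 7.94 and 11.21 TPM (17 genes) and 8.44 and 8.48 TPM (9 genes), and here the order differed between libraries. In each library the median of the 17 genes was the value of Mrps18b. Its log2 ratio between replicates was 0.53 in TPM but 0.07 in counts scaled to library size. The change of order thus rests on 1 gene whose scaled counts differed little. The ranges of mean levels differed more. Small-subunit genes with a counterpart ran from 1.16 to 89.3 TPM and those without from 1.495 to 10.1 TPM. All 5 subunits named otherwise were above 1 TPM in both libraries. They were Aurkaip1 (26.60 and 20.74 TPM), the GTP-binding protein Dap3 (13.36 and 15.47), Chchd1 (12.22 and 11.18), the pentatricopeptide protein Ptcd3 (5.35 and 6.84) and Gadd45gip1 (4.10 and 4.90).

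**Figure D2:**
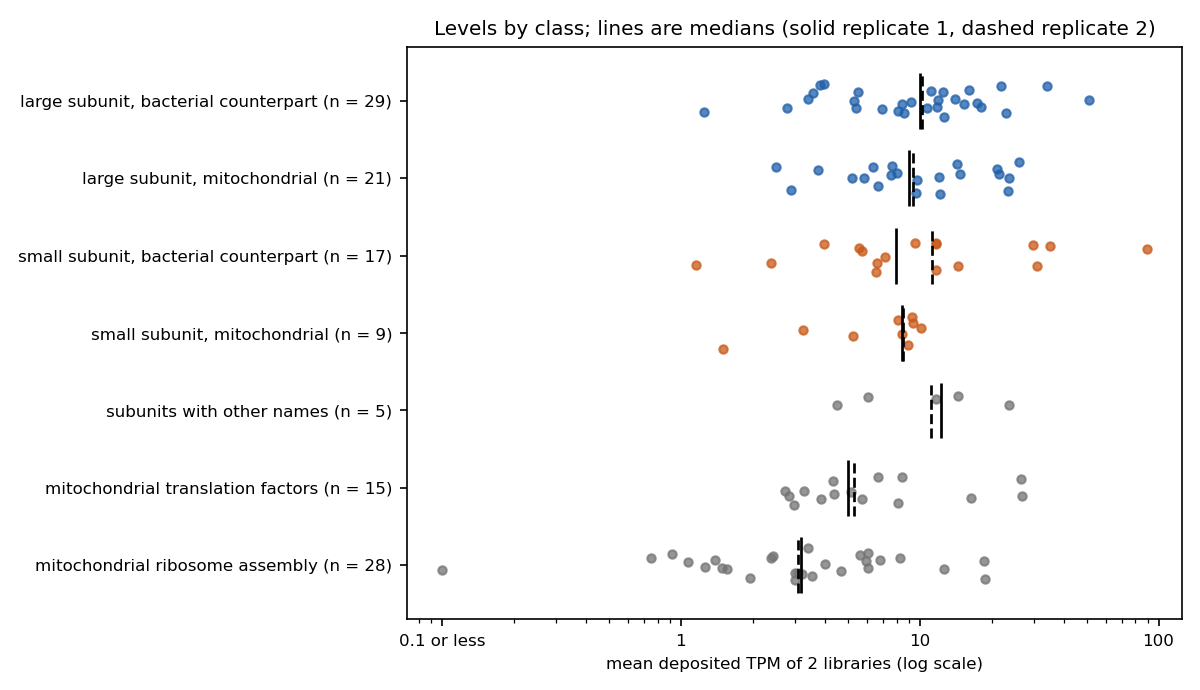
Mean deposited TPM of the 2 libraries (log scale) for each gene, by structural class, with medians of replicate 1 (solid line) and replicate 2 (dashed line). The 4 subunit classes have medians between 7.94 and 11.21 TPM, translation factors lie at 5.02 and 5.29 TPM and assembly factors at 3.19 and 3.10 TPM.

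Factors that work with the ribosome were lower in TPM as lists, but their transcripts were also longer, as given below. Of 15 measured mitochondrial translation factors, 15 were at 1 TPM or more in both libraries, with a median of 5.02 and 5.29 TPM. Lrpprc (26.33 and 27.06 TPM) and its partner Slirp (25.94 and 26.98), which stabilise mitochondrial messenger RNAs, were highest, followed by the initiation factor Mtif2 (16.75 and 15.90) and the elongation factor Gfm1 (8.58 and 8.28). Lowest were the formyltransferase Mtfmt (2.87 and 2.61 TPM), which modifies the initiator tRNA, and the GTPase Guf1 (2.53 and 3.13). Of 28 measured assembly factors, 24 reached 1 TPM in both libraries, and the median was 3.19 and 3.10 TPM. Ngrn (17.89 and 19.48 TPM), the pseudouridine synthase Trub2 (16.37 and 20.93), Mterf3 (11.90 and 13.44) and Mterf4 (8.03 and 8.45) were highest. The methyltransferase Mettl15 (0.81 and 0.69 TPM) was under 1 TPM in both, and Gtpbp10 had 0 and 1.58 counts.

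Short transcripts had the higher TPM. Effective length is the transcript length available for reads after the authors' correction for fragment size, and the set's median was 850 bases against 2161 for expressed genes (replicate 1). Across the 77 genes, Spearman's rho between TPM and effective length was -0.513 and -0.552, against -0.245 and -0.259 over the 7781 expressed genes. Genes of 1 library share its depth and fragment sizes, so these are descriptions. The 26 genes of up to 633 bases had a median of 12.7 and 13.2 TPM, the 25 in the middle 10.9 and 11.8 TPM, and the 26 of 1082 bases or more 5.55 and 5.48 TPM. Counts, which are not divided by length, were weakly related to it (rho 0.179 and 0.213, against 0.331 and 0.325 over expressed genes). Mrps21 had an effective length of 233 and 214 bases, among the shortest, and Mrpl52 210 and 194 bases. The translation and assembly factors, lower in TPM as lists, had longer median effective lengths of 1659 and 1492 bases (replicate 1). The part of the length correction in these levels was not tested. Mrps28 and Mrpl14 were short and yet among the lowest, and Mrps6, the lowest of all, had a middle length.

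**Figure D3:**
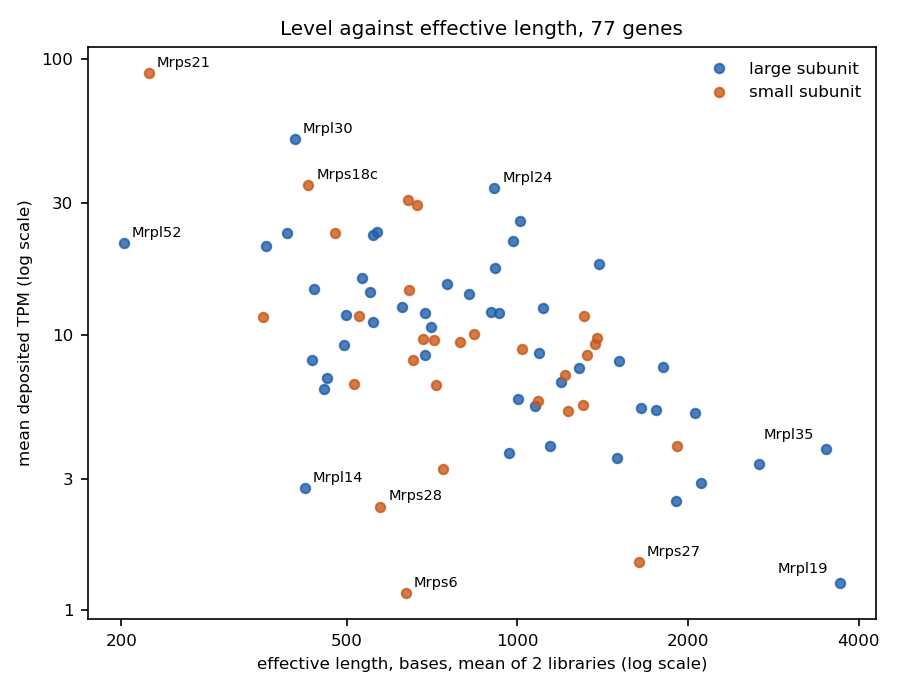
Mean deposited TPM against effective length in bases (mean of 2 libraries), both on log scales, for the 77 genes. Levels fall with length (rho -0.513 and -0.552), with Mrps21 at the short and high end, Mrpl19 at the long and low end, and Mrps28 and Mrpl14 below other short genes.

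Levels agreed closely between the cultures. Between the replicates, Pearson's r of log2 TPM over the 77 genes was 0.982 (rho 0.978), and the median coefficient of variation was 6.26%. Over the 7781 expressed genes r was 0.983 (rho 0.981), so this agreement is not particular to the set. Replicate ratios were taken from CPM, counts scaled to library size, with factors from the trimmed mean of M-values. None of the 77 genes was past 2-fold, against 1.77% of the 8908 nuclear protein-coding genes that averaged 100 counts or more, and none was past 1.5-fold. The log2 ratio, replicate 2 to replicate 1, was positive in 50 genes and negative in 27, with a median of 0.07 in the set and in each subunit (0.01 over expressed genes). With 1 library on each side, these ratios compare the libraries and carry no test.

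Mrpl52 had the largest difference in size, at -0.51 on the log2 scale (1071 and 502 counts). Mrpl18 (0.47, 3778 and 3509 counts) and Mrpl10 (0.46, 943 and 869 counts) lay at the upper end. Mrpl22 (0.32), Mrpl21 (0.30) and Mrpl23 (0.30) were next. The authors' credible intervals of TPM were apart with replicate 2 higher in 16 genes of the set, 20.8% of it, near the 20.3% of expressed genes. They were apart with replicate 1 higher in 10 genes, 13.0%, against 28.5%. The sources used here do not state the level of these intervals.

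For a few genes the TPM ratio and the count ratio differed. Mrpl17 was at 6.91 TPM in replicate 1 and 3.93 TPM in replicate 2, a log2 ratio of -0.78 after centring, while its count ratio was 0.03 (1717 and 1169 counts). Its effective length was 1210 bases in replicate 1 and 2090 in replicate 2. At the transcript level, the 459-base coding transcript Mrpl17-204 held 41.58% of the gene's TPM in replicate 1 and 0% in replicate 2, from 151 and 0 counts. The 3848-base Mrpl17-202 held 23.41% and 47.14% from 1211 and 957 counts. Mrps18b (TPM ratio 0.53, count ratio 0.07), Mrps23 (0.51 and 0.05) and Mrps7 (0.44 and 0.19) had shorter effective lengths in replicate 2. Mrpl19 (-0.47 and 0.23) had a longer one. In these 5 genes the TPM difference moved with the length assigned to the gene, and the counts differed less. Over the set, the TPM ratio correlated with the count ratio at r = 0.645, against 0.917 over expressed genes, and with the effective-length ratio at r = -0.645, against -0.364. Both TPM ratios and length ratios come from the same table, so these too are descriptions.

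**Figure D4:**
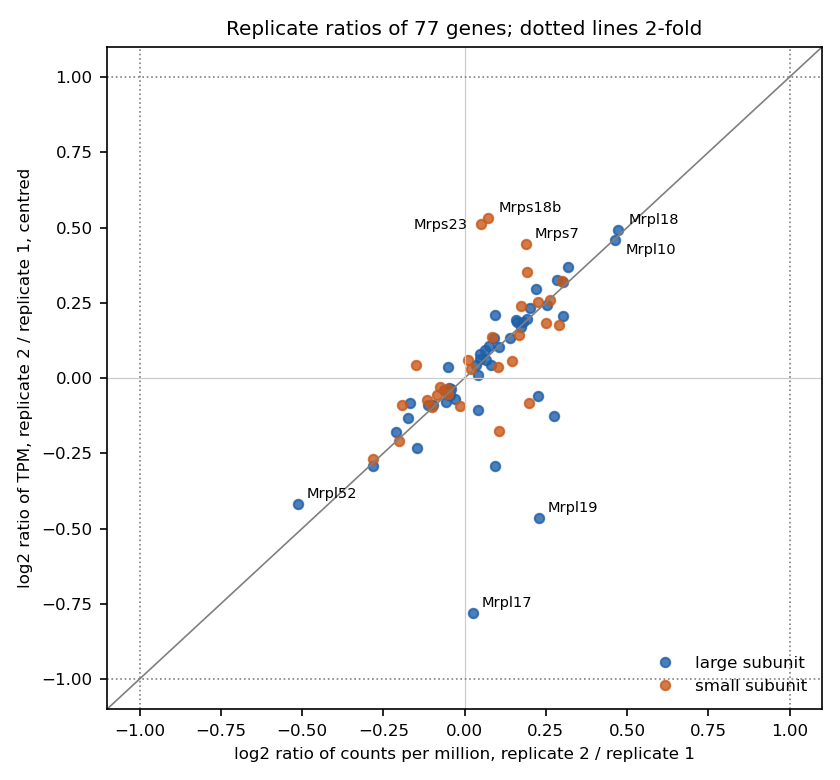
Log2 ratio of TPM (centred) against log2 ratio of scaled counts (CPM), replicate 2 to replicate 1, for the 77 genes, with the diagonal for equal ratios and dotted lines at 2-fold. No gene lies past 2-fold, and Mrpl17, Mrpl19, Mrps18b and Mrps23 stand off the diagonal.

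Most genes of the set were read as 1 main transcript. The leading transcript held a median of 90.4% and 91.5% of the gene's TPM (90.9 ± 0.813, SD, n = 2), against 80.3% and 81.1% over expressed genes. The set's genes had a median of 3 annotated transcripts against 4. Of the 77, 19 had 1 transcript, a share near that of the expressed genes (1936 of 7781). The leading transcript held at least 90% in 36 genes (46.8%, against 38.3%). It held under 50% in both libraries in 7 genes (9.09%), against 16.5% of expressed genes. These 7 were Mrpl24 (28.37% and 34.93%), Mrpl13 (37.78% and 46.94%), Mrpl55 (44.14% and 47.91%), Mrpl3 (43.26% and 41.98%), Mrpl17, Mrps11 (33.04% and 31.92%) and Mrps5 (34.20% and 26.21%). In Mrpl24, 4 coding transcripts of similar length shared most of the level, whereas in Mrps11 the rest lay in retained-intron and decay transcripts.

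The leading transcript, taken by its mean share over the libraries, was coding by its M21 type in 66 of the 77 genes (85.7%, against 92.0%). Of the other 11, 5 were led by a retained-intron transcript, which keeps intron sequence and is not read as the usual protein, namely Mrpl51, Mrps5, Mrps24, Mrps25 and Mrps26. A transcript annotated for nonsense-mediated decay led in 4, Mrpl3, Mrpl13, Mrpl32 and Mrps14, and a processed transcript without a reading frame in Mrpl15 and Mrpl47. In Mrpl13 that lead rests on replicate 2, since the coding Mrpl13-205 held 39.57% of TPM in replicate 1 against 37.78% for the decay transcript. By counts Mrpl13-205 led in both, at 52.9% and 53.5%. In Mrpl47 the processed transcript leads by TPM only, since the 3364-base coding Mrpl47-201 held 79.4% and 79.7% of the gene's counts. Mrpl48, one of the 66, went the other way. Its leading 274-base coding Mrpl48-209 held 13.2% and 11.7% of the counts, and the decay transcript Mrpl48-202 held 43.3% and 46.3%. For Mrpl32 the decay transcript was the gene's single one in the tables, and Mrps14-201 held 86.43% and 87.65%. The counting annotation was the older M4, so these types belong to the later annotation of the same identifiers.

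Retained-intron transcripts held over 25% of the TPM in both libraries in 8 of the 33 genes that have one (24.2%), near the 20.9% of 3485 expressed genes. The 8 were Mrps26 (91.92% and 84.49%), Mrps24 (83.92% and 88.25%), Mrps5 (83.12% and 74.92%), Mrps25 (82.39% and 81.05%), Mrpl51 (61.16% and 59.00%), Mrps11 (47.93% and 36.62%), Mrpl38 (46.99% and 28.19%) and Mrpl58 (34.54% and 29.76%). A short transcript takes a larger share of TPM than of counts by construction. By counts the share passed 25% in both libraries in 6 genes, and the list changed. Mrps24, Mrps26, Mrps5 and Mrps11 stayed, and Mrps10 (33.1% and 39.1%) and Mrpl15 (28.9% and 27.6%) entered. By counts, retained-intron transcripts held 76.4% and 82.1% of Mrps24 and 70.5% and 52.9% of Mrps26, but 22.9% and 20.7% of Mrps25. Mrps5 went the same way, with 34.4% and 26.4% by counts, and its coding Mrps5-201 held 65.6% and 73.3% of the counts. The 565-base Mrps25-201 led Mrps25 by TPM, and the 6073-base coding Mrps25-203 held 77.10% and 79.32% of its counts. In Mrpl51 the 2741-base coding Mrpl51-201 held 67.25% and 73.77% of the counts.

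**Figure D5:**
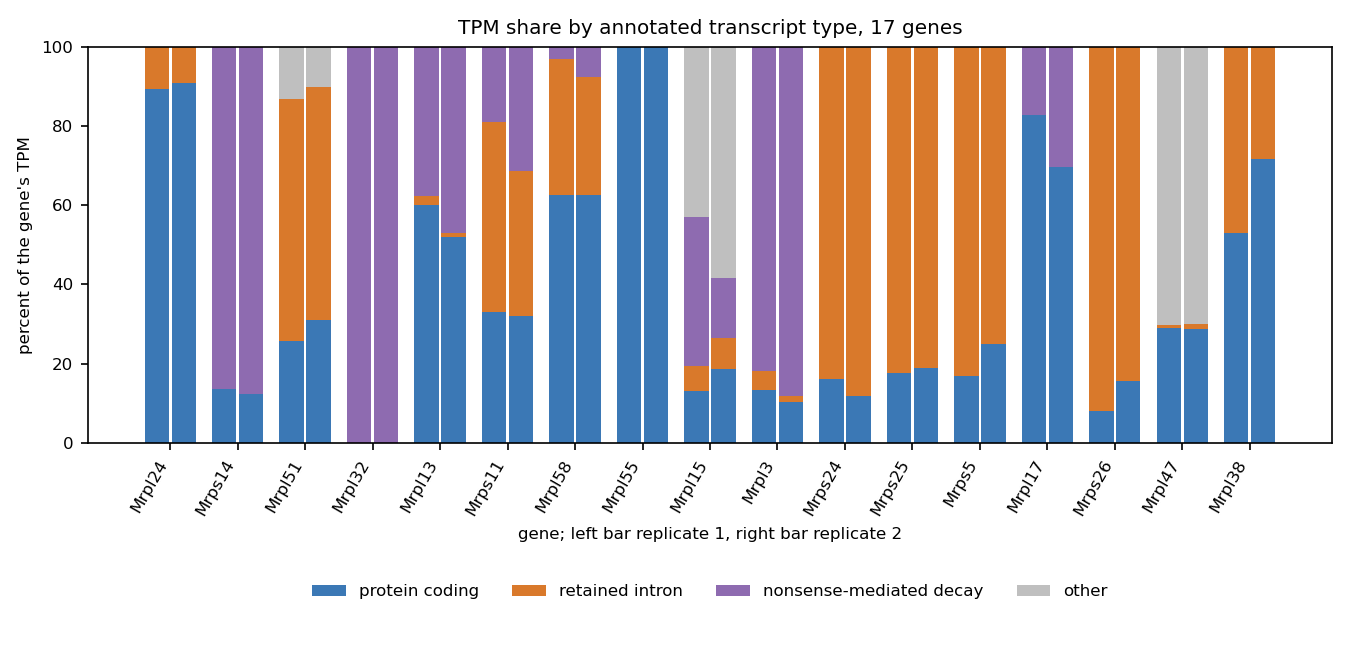
Percent of each gene's TPM by annotated transcript type in replicate 1 (left bar) and replicate 2 (right bar) for the 17 genes with a divided, noncoding or intron-retaining level, ordered by mean level. Mrps24, Mrps25, Mrps5 and Mrps26 are mostly retained-intron TPM, and Mrpl32, Mrps14 and Mrpl3 mostly decay-type TPM, in both libraries.

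Many of these genes start close to a gene on the opposite strand. A protein-coding gene on the opposite strand began within 1000 bases of the start for 33 of the 77 genes (42.9%), against 20.9% of expressed and 10.9% of all protein-coding genes. Of these, 24 were large-subunit and 9 small-subunit genes. The annotated genes lay back to back without overlap at their starts in 18 of the 33, and their 5 prime ends overlapped in 15. Mrps11 and Mrpl46 formed such a pair within the set, at 14.50 and 14.54 TPM against 12.09 and 12.17 TPM. Several partners also serve mitochondria. Mrps12 (6.90 and 6.41 TPM) stood beside Sars2, the mitochondrial seryl-tRNA synthetase (1.44 and 1.59), and Mrpl43 (5.56 and 6.18) beside Twnk, the mitochondrial DNA helicase (1.86 and 1.98). Mrpl47 (4.13 and 3.79 TPM) stood beside the respiratory-chain gene Ndufb5 (35.97 and 34.09), and Mrpl36 (8.34 and 8.52) beside Ndufs6 (7.09 and 7.45).

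A shared start region did not go with a shared level throughout. Mrpl49 (7.65 and 8.41 TPM) neighbours Fau, which encodes a cytosolic ribosomal protein (232 and 201 TPM). Mrpl10 neighbours Lrrc46 (0.01 TPM in both). The gene of the set was higher in both libraries in 22 of the 33 cases, the partner in 9, and the order differed in 2. The 33 cases are 32 distinct pairs, because Mrps11 and Mrpl46 enter from both sides. That pair is counted among the 22 and among the 9, and enters the correlation from both sides too. Spearman's rho between the members' and the partners' TPM was 0.36 and 0.347. Members with and without a partner had median levels of 9.77 and 9.03 TPM.

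Exon bases shared with another gene limit some of these values, since the sources used here do not state whether counting used strand. Same-strand overlap affected 7 genes. Gm42688 covers 88.0% of the exon bases of Mrpl53, and Nme3 37.0% of those of Mrps34. The others were Mrpl3, Mrpl51, Mrps6, Mrps18c and Mrps24. Opposite-strand overlap affected 28 genes. It was widest in Mrps25 (Nr2c2, 69.8%), Mrps34 (Mapk8ip3, 63.4%), Mrpl19 (Gcfc2, 36.0%), Mrpl43 (Twnk, 33.4%), Mrps18b (Gm16279, 30.5%) and Mrpl24 (Rrnad1, 26.3%). The remaining ones were Mrpl3, Mrpl9, Mrpl10, Mrpl12, Mrpl13, Mrpl14, Mrpl18, Mrpl21, Mrpl27, Mrpl36, Mrpl44, Mrpl46, Mrpl47, Mrpl48, Mrpl49, Mrpl53, Mrpl58, Mrps7, Mrps11, Mrps26, Mrps27 and Mrps30.

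Processed pseudogenes are copies of a messenger RNA that can share reads with their parent. Mrpl23-ps1 was listed at 19.17 and 22.74 TPM, 2.93-fold and 3.09-fold above Mrpl23 itself (6.54 and 7.37 TPM), so the division of reads between them is uncertain. Mrpl48-ps was at 3.47 and 3.16 TPM against 21.89 and 20.21 TPM for Mrpl48. The 3 Mrps36 pseudogenes were at 0.29 TPM or less, and Mrps36 was at 25.93 and 21.05 TPM.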

How the data were processed

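Total RNA-seq was measured in 2 libraries of 1 group. For each library the authors deposited a table of genes and a table of transcripts, with expected counts, TPM, posterior mean TPM, FPKM and, in the transcript tables, the percent of a gene's TPM per transcript, per the file headers. Credible bounds of TPM, treated as a score, and effective length in bases were deposited in the same tables. Assembly mm10 and annotation M4 are named in text lists the authors deposited. For the program, aligner, versions, interval level and use of strand, the sources used here give nothing. The symbols, types and coordinates came from GENCODE M21 on the same assembly, joined on identifiers without version, and 42462 of 43346 Ensembl rows matched. Promoter windows are from RefSeq (GRCm38.p6).

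Levels are deposited TPM with mean ± SD over 2 libraries. Replicate ratios used expected counts, unrounded, with TMM factors and a prior count of 0.5 in edgeR 4.0.16 (R 4.3.3), and DESeq2 1.42.0 size factors as an alternative. Tables were handled in Python 3.11. The ratio step was tested on simulated data. Reads carry no molecular identifiers. The libraries differed by more than sampling noise (chi-square per degree of freedom 75.8 over 12223 genes) and were counted as 2.

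Members, lists, motifs and thresholds were chosen with earlier results of these data known. Named were the 8 highest and 5 lowest genes of each subunit, the 6 largest replicate differences, genes with divided or intron-retaining transcripts, stalk and Mrps18 proteins, Mrps30, Mrps36, subunits with other names, the 4 highest and 2 lowest of each list, and genes in exon overlap. Other genes with values, such as Mrps7, Mrps12, Mrps23, Mrpl15, Mrpl47, the divergent partners and the pseudogenes, were named after their values were seen.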

Additional observations from a re-analysis of the deposited data

How the results depend on the processing

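No paired analysis was possible because both libraries belong to 1 group. Of 42 comparisons of a group result with an alternative, 36 were the same. They kept their direction and call or, for counts, stayed within 1.5 times and, for values with no call, within 1 SD. Part of the 36 could not have come out otherwise. With 2 libraries, either one alone always lies within 1 SD of their mean. FPKM and rescaled TPM are TPM times a constant of the library, and the filter at 1 TPM removed no gene. The tally is therefore no measure of stability. Among the 36, 60 genes passed a threshold of 5 TPM in place of 77 at 1 TPM. The log2 subunit difference ran from 0.06 (geometric means, pseudocount 1) to 0.20 (subunits by structure). The other 6 follow. Without the genes that overlap another gene's exons or have a named pseudogene, the log2 difference of large over small subunit was -0.047, the reverse of 0.10, and 43 genes were counted at 1 TPM because 43 remained. By share of expected counts, the transcript that led by TPM held a median of 94.0%, and it held under 50% in 11 genes. The leader was not chosen anew by counts, so another transcript can hold over 50% of the counts in some of the 11. Among genes at 10 TPM or more in both libraries, the median leading share was 84.3% and 4 genes had over 25% retained-intron TPM, fewer genes being examined. The cause of the other shifts was not tested.

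With either library alone, 77 and 77 genes were at 1 TPM, the level relative to expressed genes was 1.33 to 1.47, the subunit difference 0.09 to 0.11, the leading share 90.4% to 91.5%, and the counts under 50% and over 25% were 8 to 9 and 8 to 9. Posterior mean TPM moved 7 of 77 single levels by more than 1 SD, and over all 77 it lay between 0.993-fold and 1.06-fold of TPM. The design has 1 condition and 2 libraries, so it gives levels and no tests, and intervals cover estimation error only. Low genes rest on few reads (113 counts for Mrps6).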
